A study of Mus musculus with 22 samples.

Results

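The genes described here encode MHC class I molecules, proteins that make peptides for them and load them, and a regulator of class I genes. They are 10 of the 34585 entries measured (34584 besides the transgene): B2m, H2-K1, H2-D1, Tap1, Tap2, Tapbp, Psmb8, Psmb9, Psmb10 and Nlrc5. They were chosen by symbol for their place in the class I pathway and the immunoproteasome, and not by a threshold on their values. Earlier results of these data were known at that point. The series holds RNA-seq of the thymus, the cerebrum and the cerebellum from C57BL/6 mice heterozygous for the Tol transgene and from their wild-type (WT) littermates. Tol is a chimeric reading frame of scrambled reporter protein and Cre fragments, inserted 3′ of Col1a1 by cassette exchange in an embryonic stem cell line and driven by the CAG promoter, which is active in most tissues. Thymus and cerebrum have 4 libraries of each genotype, and cerebellum has 2 of Tol and 4 of WT mice. The labels give genotype, organ and a replicate number, but neither age nor sex, and with 2 Tol cerebella a Tol difference in that organ is poorly determined. The labels number the replicates without naming animals, so p-values measure the spread between these samples.

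MHC class I molecules consist of a polymorphic heavy chain (H2-K1 or H2-D1 in C57BL/6 mice) and the invariant light chain B2m, and present peptides from inside the cell to CD8 T cells. The peptides are cut by the proteasome, pumped into the endoplasmic reticulum by the transporter formed by Tap1 and Tap2, and loaded with the help of tapasin (Tapbp). In immune cells and under interferon, Psmb8, Psmb9 and Psmb10 take the places of the constitutive catalytic subunits Psmb5, Psmb6 and Psmb7, and Nlrc5 is a transactivator of class I genes. In the thymus these molecules present self peptides to developing T cells, and cortical thymic epithelium has a catalytic subunit of its own, Psmb11, while neurons are known for low class I expression.

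Estimated counts summed to between 18519829 and 34776973 per library in the Tol thymi, with thymus Tol replicate 1 the deepest, and to between 16319117 and 29145285 in the WT thymi, with replicate 4 the deepest. The totals were 14543698 to 23311643 in the Tol cerebra, 18049096 to 21007905 in the WT cerebra, 25250446 and 25298676 in the Tol cerebella and 23340005 to 27057348 in the WT cerebella. Levels are given as CPM, the count relative to a library total scaled over all 22 libraries by the trimmed mean of M values (TMM), and are listed in the order of the replicate numbers. Relative to the raw library total, without that scaling, the Tol transcript was measured at 29.4, 24.2, 23.5 and 29.1 CPM in the Tol thymi, 151, 124, 145 and 154 CPM in the Tol cerebra, and 183 and 138 CPM in the Tol cerebella. In the 12 WT libraries it had 0 to 2 counts, under the 3 counts taken as detectable, which corresponded to 0.103 to 0.184 CPM in the WT thymi on the same unscaled totals. The transcript thus followed the genotype label in all 22 libraries. Floors cover counting error only.

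The tissue labels were checked against marker genes. The 9 thymocyte markers, all detected and led by Rag1, summed to 9278, 8443, 9776 and 7870.3 CPM in the Tol thymi and to 9821, 9571, 9386 and 10759 CPM in the WT thymi, against 5.40 to 45.6 CPM in the brain libraries. The 8 thymic epithelium markers, led by Prss16, summed to 1618, 1849, 1681 and 1782 CPM in the Tol thymi and to 1590.3, 1659, 1718 and 1733 CPM in the WT thymi. The 4 cerebrum markers summed to 1369 to 2046 CPM in the cerebra and to at most 29.8 CPM in the cerebella.

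One library stood apart from its label. The 4 cerebellum markers (Gabra6, Pcp2, Cbln3 and Calb1) summed to 4318 CPM in cerebellum Tol replicate 1 and to 3315, 1646, 3938 and 3436 CPM in the WT cerebella, but to 146 CPM in the library labelled cerebellum Tol replicate 2. The cerebra held 122 to 193 CPM of the same markers, and none of the 4 was at 0 in the library labelled cerebellum Tol replicate 2. There the most abundant was Calb1 in place of Cbln3. Its median correlation with the other cerebellum libraries was 0.951, against 0.981 to 0.991 for the others. The 4 oligodendrocyte markers, led by Mbp, stood at 7547 CPM in that library and at 13914 CPM in cerebellum WT replicate 2, against 3806 to 5775 CPM in the other cerebella. The choroid plexus markers, 4 genes led by Ttr or Kl, stood at 1279 CPM in cerebellum WT replicate 2 and 4621 CPM in WT replicate 4, against 5.54 to 11.3 CPM in the other cerebella. The count of members called in cerebellum and their log2 fold changes are therefore given with and without the library labelled cerebellum Tol replicate 2, and those of other genes with it only.

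The members lie on 3 mouse chromosomes of the GRCm38 build, none of them the chromosome of Col1a1. On chromosome 17, within the MHC, lie H2-K1 (ENSMUSG00000061232) at chr17:33996017-34000347, H2-D1 (ENSMUSG00000073411) at chr17:35262730-35267499 and Tapbp (ENSMUSG00000024308) at chr17:33915899-33929292. A cluster between the heavy chains holds Psmb9 (ENSMUSG00000096727) at chr17:34181987-34187764, Tap1 (ENSMUSG00000037321) at chr17:34187553-34197225, Psmb8 (ENSMUSG00000024338) at chr17:34197721-34201454 and Tap2 (ENSMUSG00000024339) at chr17:34203527-34216321. The other members are B2m (ENSMUSG00000060802) at chr2:122147686-122153083, Nlrc5 (ENSMUSG00000074151) at chr8:94434356-94527272 and Psmb10 (ENSMUSG00000031897) at chr8:105935735-105938444. Some reads cannot be placed with certainty, since class I heavy chains resemble each other. Of all stretches of 65 bases, the read length, 95.3% in H2-K1 and 93.3% in H2-D1 occurred in no other gene. Exons of Tap1 and Psmb9 overlap on opposite strands, those of Tapbp overlap Zbtb22 on the same strand, and Tap2, Psmb8 and Nlrc5 overlap non-coding or predicted genes. The strand setting of the counting was not stated, so reads from these overlaps are uncertain.

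In WT mice the members were far higher in the thymus than in either part of the brain. B2m was measured at 946, 941, 858 and 851 CPM in the WT thymi, 72.0, 99.4, 83.9 and 61.8 CPM in the WT cerebra and 78.5, 80.6, 61.2 and 61.9 CPM in the WT cerebella. Every thymus lay above every brain library, and the cerebra and cerebella overlapped. By edgeR's quasi-likelihood test with Benjamini-Hochberg adjustment over all genes, all 10 members were called higher in thymus than in cerebrum, where 43.4% of 17413 genes were, and all 10 were called higher in thymus than in cerebellum, where 41.8% were. The median log2 fold change over the members was 4.88 against cerebrum and 4.65 against cerebellum, and over all genes tested 0.06 and -0.01. These 2 comparisons share the WT thymi. In whole tissue, fewer cells of a type and less RNA per cell cannot be told apart.

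The heavy chains followed B2m, with a difference between the brain regions. H2-K1 had 701, 723, 666 and 649.8 CPM in the WT thymi, 21.1, 25.1, 20.2 and 16.5 CPM in the WT cerebra and 23.6, 31.3, 21.0 and 24.8 CPM in the WT cerebella. H2-D1 had 597, 626, 562 and 575 CPM in the WT thymi, 32.8, 42.3, 33.9 and 25.3 CPM in the WT cerebra and 108, 84.7, 121 and 109.6 CPM in the WT cerebella. H2-D1 was thus higher in every WT cerebellum than in every WT cerebrum, while H2-K1 overlapped between them. The log2 fold change of thymus over cerebrum was 5.07 ± 0.15 (SE) for H2-K1 and 4.16 ± 0.16 for H2-D1, and over cerebellum 4.80 ± 0.15 and 2.51 ± 0.15 (n = 4 per group).

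The transporter and tapasin, which bring peptide to the heavy chain, differed in how steep their organ difference was. Tap1 was at 156, 149.9, 150.2 and 149 CPM in the WT thymi, 2.60, 2.64, 2.52 and 3.06 CPM in the WT cerebra and 2.73, 4.45, 2.09 and 3.01 CPM in the WT cerebella. Tap2, its partner, was at 198 ± 5.74 CPM (SD, n = 4) in thymus, 7.81 ± 0.820 CPM in cerebrum and 8.95 ± 2.02 CPM in cerebellum. Tapbp was at 184 ± 10.1 CPM in thymus, 27.5 ± 2.38 CPM in cerebrum and 29.3 ± 3.21 CPM in cerebellum. For none of these 3 genes did the cerebra and the cerebella separate. The log2 fold change of thymus over cerebrum was 5.83 ± 0.18 for Tap1, 4.69 ± 0.14 for Tap2 and 2.77 ± 0.09 for Tapbp.

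Of the immunoproteasome subunits, Psmb8 and Psmb9 had a steeper organ difference than Psmb10. Psmb8 had 179, 174, 191 and 199.99 CPM in the WT thymi, 2.22, 2.83, 2.16 and 2.16 CPM in the WT cerebra and 1.47, 2.75, 1.43 and 2.05 CPM in the WT cerebella. Psmb9 had 72.2, 72.5, 69.9 and 73.1 CPM in the WT thymi, 0.868, 1.09, 0.901 and 0.899 CPM in the WT cerebra and 0.588, 0.959, 0.425 and 0.786 CPM in the WT cerebella. The brain values of Psmb9 rest on 11 to 29 counts per library. Psmb10 had 66.7, 70.3, 71.1 and 72.7 CPM in the WT thymi, 20.5, 28.8, 23.4 and 21.5 CPM in the WT cerebra and 9.23, 12.3, 8.42 and 9.30 CPM in the WT cerebella, so that the 3 organs did not overlap. Psmb8 was 80.7-fold higher in thymus than in cerebrum (adjusted p = 3.3e-12), Psmb9 77.5-fold (adjusted p = 2.0e-12) and Psmb10 3.03-fold (adjusted p = 5.8e-08). Nlrc5, the transactivator, had 92.8, 91.6, 74.7 and 76.1 CPM in the WT thymi, 1.46, 1.03, 1.201 and 0.959 CPM in the WT cerebra and 1.38, 2.35, 0.927 and 1.09 CPM in the WT cerebella. It was 72.5-fold higher in thymus than in cerebrum, and its brain regions overlapped.

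Between the brain regions, 2 of 10 members were called, where 51.1% of 17413 genes were. H2-D1 was lower in cerebrum than in cerebellum (log2 fold change -1.64 ± 0.14, edgeR adjusted p = 2.0e-06), and Psmb10 was higher (1.27 ± 0.13, adjusted p = 5.6e-06). The median log2 fold change of cerebrum over cerebellum was -0.12 over the members and -0.03 over all genes tested. Among the WT cerebella, replicate 2 had the highest summed microglia and macrophage markers and the highest summed endothelium markers (247 CPM, others 194 to 205 CPM). The count of members called was 4 without cerebellum WT replicate 2, a library also rich in oligodendrocyte and choroid plexus markers, where 53.1% of genes were called. Psmb8 then had a log2 fold change of 0.51 (adjusted p = 0.0136, with 0.0136 to 0.559 over the alternatives) and Psmb9 of 0.66 (adjusted p = 0.0361, with 0.0361 to 0.338 over the alternatives). H2-K1 was called without cerebrum WT replicate 2 (-0.37, adjusted p = 0.0366, with 0.0203 to 0.310 over the alternatives), with a replicate block (-0.27, adjusted p = 0.0497) and with library totals (-0.42, adjusted p = 0.0203). The part of these and other cell types in the values was not tested.

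**Figure D1:**
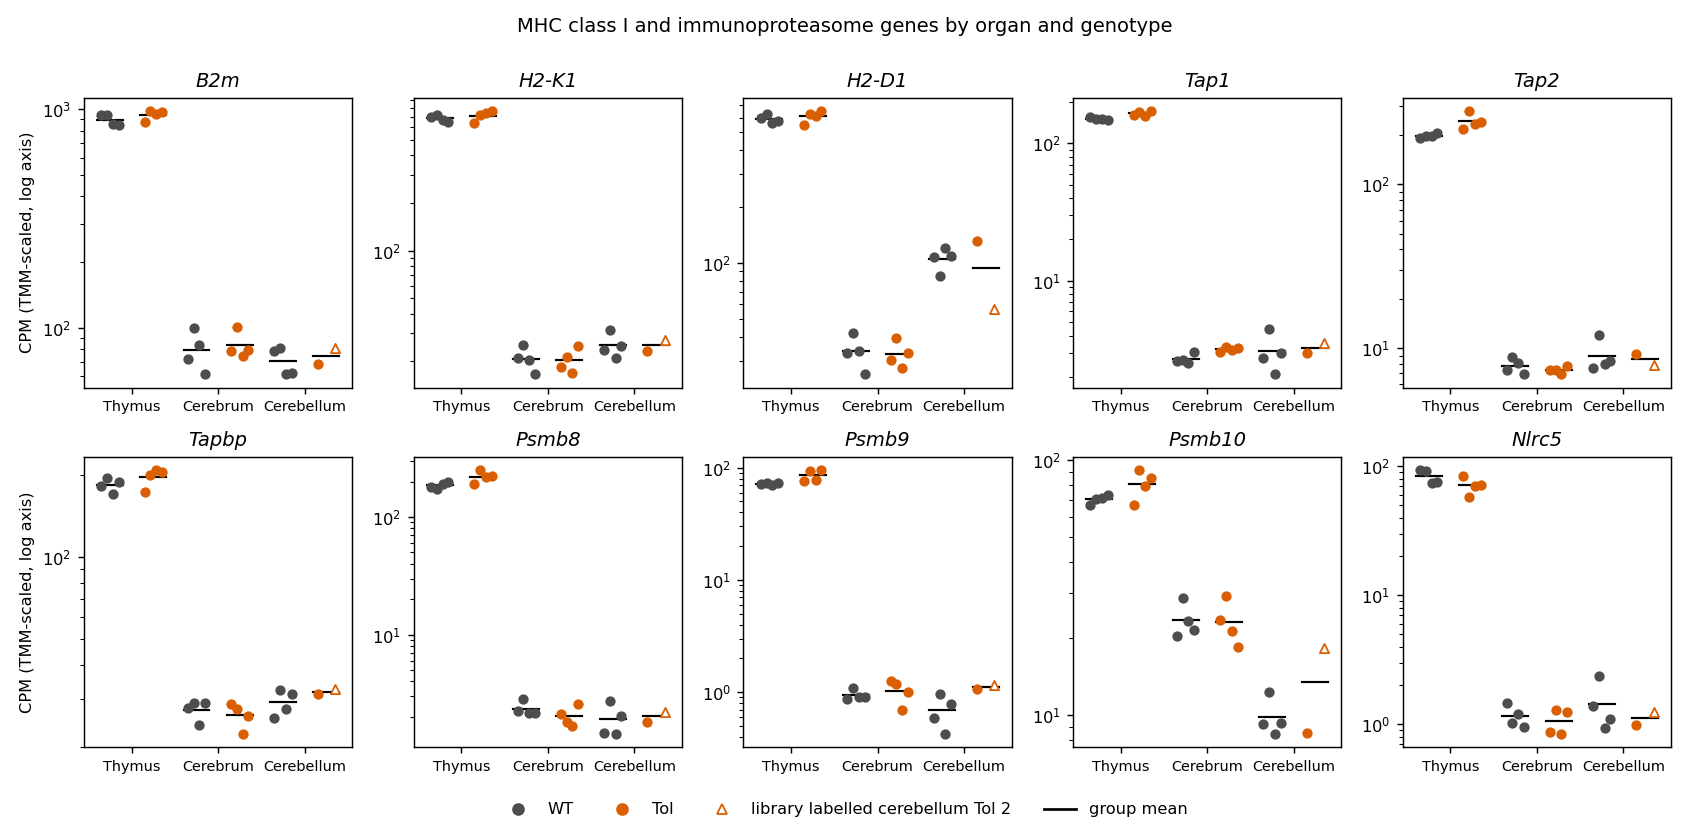
Level of each of the 10 members in CPM (log axis) per library, by organ and genotype, with lines at the group means and an open triangle for the library labelled cerebellum Tol replicate 2. The thymi lie above all brain libraries for every member, and H2-D1 and Psmb10 separate the WT cerebra from the WT cerebella.

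Levels of different genes were compared per kilobase of mean transcript length. On this scale (CPM per kb), WT thymus held B2m at 1045 ± 59.6 (SD, n = 4), H2-K1 at 679 ± 32.8 and H2-D1 at 653 ± 31.0, and the heavy chains overlapped with each other but not with B2m. Tapbp (168 ± 9.20), Psmb8 (155 ± 9.73) and Tap2 (139 ± 4.04) followed on the same scale, with Tapbp and Psmb8 overlapping. Psmb10 (87.9 ± 3.19), Psmb9 (65.6 ± 1.30), Tap1 (64.1 ± 1.38) and Nlrc5 (30.1 ± 3.51) had the lowest levels per kb, and Psmb9 and Tap1 overlapped. With the longest transcript as the length, the overlapping pairs Tapbp and Psmb8, and Psmb9 and Tap1, changed places.

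In WT cerebrum the order per kb began with B2m (92.2 ± 18.8 CPM per kb), followed by H2-D1 (37.2 ± 7.71), Psmb10 (29.5 ± 4.60), Tapbp (25.1 ± 2.17) and H2-K1 (20.6 ± 3.53). From H2-D1 to H2-K1, each overlapped with the next in the order. Below them came Tap2 (5.50 ± 0.577 CPM per kb), Psmb8 (1.95 ± 0.271), Tap1 (1.14 ± 0.102), Psmb9 (0.858 ± 0.0942) and Nlrc5 (0.419 ± 0.0808), without overlap between neighbours in any library. In WT cerebellum, H2-D1 stood at 117 ± 16.7 CPM per kb and B2m at 82.0 ± 12.1, with overlap, and with the longest transcript as the length B2m was the higher of the pair. That length also exchanged the places of Tapbp and H2-K1 in both brain regions and of H2-D1 and Psmb10 in cerebrum. Psmb10, in the upper group in cerebrum, was at 12.3 ± 2.13 CPM per kb in cerebellum, below Tapbp (26.8 ± 2.94) and H2-K1 (25.0 ± 4.33). Tap2 (6.30 ± 1.42 CPM per kb), Psmb8 (1.60 ± 0.514) and Tap1 (1.30 ± 0.422) came next, the last 2 with overlap. The lowest cerebellum levels per kb were those of Psmb9 (0.629 ± 0.212) and Nlrc5 (0.518 ± 0.230), which overlapped.

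Each immunoproteasome subunit was also set against the constitutive subunit whose place it takes, as a ratio of counts within a library, which needs no scaling between libraries. The ratios are not scaled for transcript length, so they compare libraries and do not show which gene of a pair is higher. Per kb, WT thymus held Psmb8 at 155 CPM and Psmb5 at 73.6 CPM. On that scale Psmb9 was at 65.6 and Psmb6 at 103 CPM, and Psmb10 at 87.9 and Psmb7 at 44.4 CPM. Psmb8 to Psmb5 was 3.27, 3.41, 3.26 and 3.36 in the WT thymi, 0.0405, 0.0531, 0.0367 and 0.0376 in the WT cerebra and 0.0351, 0.0577, 0.0339 and 0.0432 in the WT cerebella. Psmb9 to Psmb6 was 0.912, 0.986, 0.820 and 0.888 in the WT thymi, 0.0149, 0.0199, 0.0152 and 0.0150 in the WT cerebra and 0.00975, 0.0157, 0.00678 and 0.0128 in the WT cerebella. Psmb10 to Psmb7 was 0.805, 0.836, 0.750 and 0.769 in the WT thymi, 0.250, 0.356, 0.288 and 0.259 in the WT cerebra and 0.127, 0.149, 0.118 and 0.118 in the WT cerebella. All 3 ratios were higher in every WT thymus than in every WT brain library, and Psmb10 to Psmb7 alone also separated cerebrum from cerebellum. The constitutive subunits differed by at most 0.49 in log2 between organs. For thymus over cerebrum, Psmb5 had a log2 fold change of 0.02 ± 0.07 (adjusted p = 0.811 in edgeR), Psmb6 of 0.49 ± 0.06 (adjusted p = 4.1e-06) and Psmb7 of 0.15 ± 0.07 (adjusted p = 0.0537). For thymus over cerebellum the values were 0.35 ± 0.07 (adjusted p = 0.000442), 0.42 ± 0.06 (adjusted p = 1.8e-05) and 0.26 ± 0.07 (adjusted p = 0.00301), every thymus lying above every cerebellum. Psmb5 was also higher in cerebrum than in cerebellum (0.34 ± 0.07, adjusted p = 0.00176). Psmb11 had 117, 115, 126 and 128 CPM in the WT thymi and at most 1.79 CPM in the brain libraries. Psmb5 shares sequence with the predicted gene Gm3375, and 56.5% of its 65-base stretches occurred in no other gene, so its counts are uncertain.

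**Figure D2:**
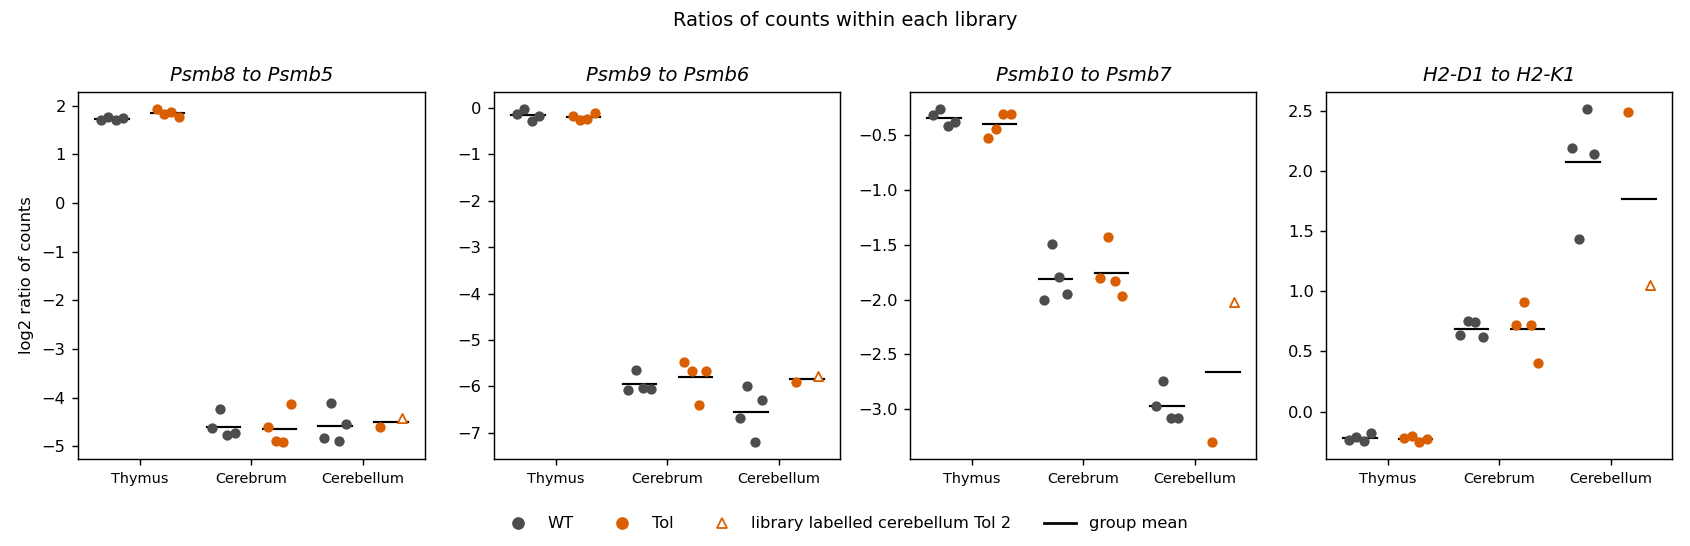
Log2 ratio of counts within each library for Psmb8 to Psmb5, Psmb9 to Psmb6, Psmb10 to Psmb7 and H2-D1 to H2-K1, by organ and genotype, 1 point per library. The proteasome ratios are highest in the thymi, and H2-D1 to H2-K1 is highest in the cerebella, where the library labelled Tol replicate 2 has the lowest value.

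The ratio of the heavy chains showed the regional difference directly. H2-D1 to H2-K1 was 0.851, 0.866, 0.844 and 0.884 in the WT thymi, 1.56, 1.68, 1.68 and 1.53 in the WT cerebra and 4.56, 2.70, 5.73 and 4.42 in the WT cerebella. It was 0.861, 0.870, 0.837 and 0.854 in the Tol thymi, 1.64, 1.88, 1.65 and 1.32 in the Tol cerebra, and 5.61 and 2.08 in the Tol cerebella. The organs did not overlap in either genotype, and within each organ Tol and WT libraries did. The lowest of the cerebellum ratios were those of the library labelled Tol replicate 2 and of WT replicate 2, the pair with the lowest summed cerebellum markers.

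Between Tol and WT thymus, none of the 10 members passed an adjusted p of 0.05 in edgeR's quasi-likelihood test, where 0.0985% of genes did (16 of 16248). By unadjusted p under 0.05, 5 members were higher in Tol and 1 was lower, where 13.3% of genes were higher, 11.1% lower and 24.4% either. DESeq2 called 2 of 10 members, Tap2 and Psmb9, and 9.96% of the genes it gave an adjusted p. The median log2 fold change was 0.11 over the members and 0.01 over all genes tested. For 3 members every Tol thymus lay above every WT thymus, where 6.11% of genes did, and for 0 members every Tol thymus lay below, where 5.5% of genes did.

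B2m, the light chain, was at 873, 985, 951 and 975 CPM in the Tol thymi, against 851 to 946 CPM in the WT thymi. H2-K1 was at 635, 717, 735 and 764 CPM in the Tol thymi (WT 649.8 to 723 CPM). H2-D1 was at 547, 624, 615 and 652 CPM in the Tol thymi (WT 562 to 626 CPM). In all 3 genes thymus Tol replicate 1 was the lowest Tol library, below the WT thymi for both heavy chains, and the groups overlapped. Their log2 fold changes were 0.08 ± 0.07 (SE), 0.06 ± 0.07 and 0.05 ± 0.07 (n = 4 per group), and turned to -0.09, -0.05 and -0.09 when each library's trend with transcript length and GC content was removed. Without that removal, the highest of the 3 had a 95% interval of -0.08 to 0.23, so a rise of B2m beyond 1.17-fold lay outside it. The value of B2m with the trend removed lay below this interval.

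Tap2 showed the lowest p among the members. Tap2, which forms the peptide transporter with Tap1, was at 219, 280.5, 232 and 241 CPM in the Tol thymi and 191, 197, 198 and 205 CPM in the WT thymi. Tap1, its partner, was at 161, 170.1, 158 and 173 CPM in the Tol thymi and 156, 149.9, 150.2 and 149 CPM in the WT thymi. All 4 Tol libraries lay above all 4 WT libraries in both genes. The log2 fold change was 0.30 ± 0.08 for Tap2 (unadjusted p = 0.00275, edgeR adjusted p = 0.0862) and 0.13 ± 0.06 for Tap1 (unadjusted p = 0.0432, adjusted p = 0.192). DESeq2 gave Tap2 an adjusted p of 0.0118, with a range of 0.0102 to 0.232 over all alternatives. Tapbp was at 173, 199, 208 and 205 CPM in the Tol thymi and 171 to 194 CPM in the WT thymi, with overlap (log2 fold change 0.10 ± 0.07, adjusted p = 0.430).

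Psmb8, which takes the place of Psmb5, was at 189.7, 249, 219.8 and 224 CPM in the Tol thymi and 179, 174, 191 and 199.99 CPM in the WT thymi. Psmb9 was at 75.8, 92.5, 78.2 and 94.5 CPM in the Tol thymi and 72.2, 72.5, 69.9 and 73.1 CPM in the WT thymi. Psmb10 was at 66.7, 91.2, 79.0 and 85.3 CPM in the Tol thymi and 66.7, 70.3, 71.1 and 72.7 CPM in the WT thymi. Psmb9 was higher in every Tol thymus than in any WT thymus. Thymus Tol replicate 1 lay within the WT range for Psmb8 and just under it for Psmb10 (66.65 against 66.70 CPM). The log2 fold changes were 0.25 ± 0.09 for Psmb8 (edgeR adjusted p = 0.126), 0.25 ± 0.08 for Psmb9 (adjusted p = 0.110) and 0.20 ± 0.09 for Psmb10 (adjusted p = 0.195). DESeq2 gave Psmb9 an adjusted p of 0.0487, with a range of 0.0149 to 0.415 over all alternatives. Nlrc5 went the other way, at 83.8, 58.2, 70.1 and 71.5 CPM in the Tol thymi and 92.8, 91.6, 74.7 and 76.1 CPM in the WT thymi. Thymus Tol replicate 1 lay among the WT values and the other 3 below them (log2 fold change -0.24 ± 0.11, edgeR adjusted p = 0.204).

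Of the constitutive subunits, Psmb6 and Psmb7 separated the genotypes in thymus without passing the threshold, and Psmb5 did not separate them. Psmb6 was at 85.6, 111, 92.5 and 103 CPM in the Tol thymi and 79.2, 73.6, 85.2 and 82.3 CPM in the WT thymi. Psmb7 was at 96.1, 124, 97.6 and 106 CPM in the Tol thymi and 82.9, 84.0, 94.8 and 94.6 CPM in the WT thymi. Every Tol library was above every WT library in both genes, with log2 fold changes of 0.29 ± 0.09 (edgeR adjusted p = 0.0969) and 0.25 ± 0.09 (adjusted p = 0.133). Psmb5 was at 49.4, 70.1, 59.7 and 66.0 CPM in the Tol thymi and 51.0 to 59.5 CPM in the WT thymi, Tol replicate 1 being the lowest of the 8. It had a log2 fold change of 0.13 ± 0.10 and Psmb11 of 0.15 ± 0.07, with overlap. The ratio of Psmb8 to Psmb5 was 3.84, 3.55, 3.68 and 3.39 in the Tol thymi, of which replicate 4 alone lay within the WT range (difference in mean log2 ratio 0.12, p = 0.0571 by a two-sided exact permutation test, and 0.514 adjusted over the 9 ratio tests). The smallest p that 4 libraries against 4 allow is 0.0286. Psmb9 to Psmb6 was 0.885, 0.835, 0.846 and 0.918 in the Tol thymi and Psmb10 to Psmb7 was 0.694, 0.734, 0.810 and 0.808, and both overlapped with WT (difference -0.05 in each, exact permutation tests, p = 0.571 and p = 0.429).

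The thymus calls changed with the libraries included. Without thymus Tol replicate 1, the library with the highest total, 5 of 10 members were called, where 18.2% of 16370 genes were. The log2 fold change of Tap2 was then 0.36 (adjusted p = 0.0102 in edgeR), that of Psmb8 0.33 (adjusted p = 0.0124) and that of Psmb9 0.31 (adjusted p = 0.0149). Psmb10 had 0.29 (adjusted p = 0.0132) and Nlrc5 -0.32 (adjusted p = 0.0473). Over all alternatives the adjusted p ranged from 0.0124 to 0.449 for Psmb8, 0.0132 to 0.749 for Psmb10 and 0.0443 to 0.622 for Nlrc5. With the deepest Tol and the deepest WT library both left out, which was tried after the data had been seen, 5 members were again called, where 11.1% of genes were. Log2 fold changes in thymus were also lower for longer transcripts (Spearman's rho -0.363 across 16199 genes, which are not independent replicates). With that trend removed, 4 members had an unadjusted p under 0.05, all higher in Tol, where 1705 of 16248 genes were higher and 1777 lower. The median log2 fold change over all 10 members was then 0.02. Summed thymocyte markers were lowest in Tol replicates 2 and 4, at 8443 and 7870.3 CPM, the libraries with the highest Psmb9 and Psmb10. Of these 9 markers only Rag1 separated the genotypes (4054 to 4973 CPM in the WT thymi, 2642 to 3917 CPM in the Tol thymi), and the other 8 overlapped. The thymic epithelium sums of the same 2 libraries, 1849 and 1782 CPM, were the highest of the 8 thymi. Of the thymic epithelium markers only Epcam separated the genotypes (30.4 to 37.5 CPM in the Tol thymi, 28.6 to 30.1 CPM in the WT thymi). The 5 B cell markers, led by Cd79a or Cd22, summed to 45.5, 40.0, 48.1 and 42.1 CPM in the Tol thymi and to 51.7, 47.0, 50.4 and 65.2 CPM in the WT thymi, with overlap. Pax5 (4.10 to 6.68 CPM in the Tol thymi, 6.73 to 9.54 CPM in the WT thymi) and Cd22 (7.55 to 10.02 and 10.6 to 11.9 CPM) separated the genotypes, and the other 3 overlapped. The 5 dendritic cell markers, led by Itgax, summed to 58.6, 45.6, 52.3 and 56.1 CPM in the Tol thymi and to 73.8, 64.5, 54.6 and 63.5 CPM in the WT thymi, with overlap of the sum and of each marker. The part of depth, transcript length and cell types in these values was not tested.

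**Figure D3:**
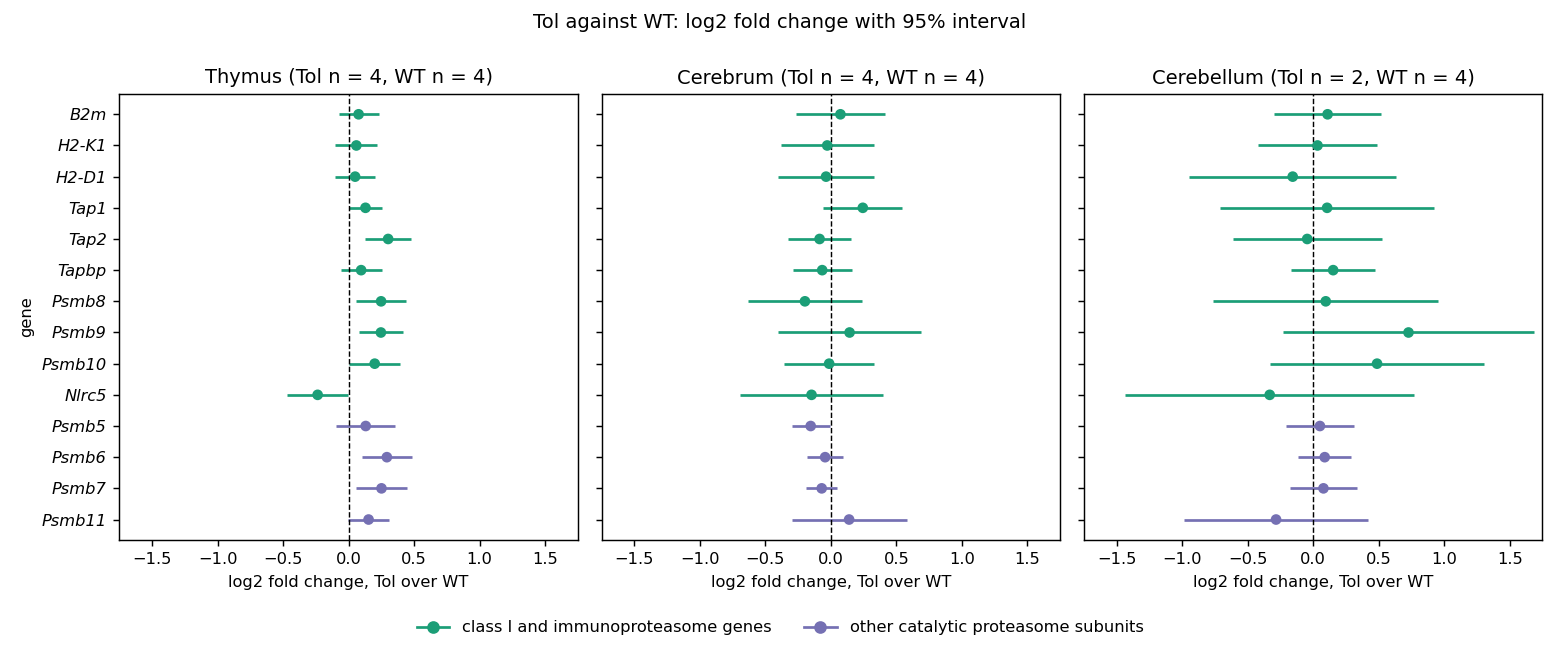
Log2 fold change of Tol over WT with its 95% interval for the 10 members and for Psmb5, Psmb6, Psmb7 and Psmb11 in thymus, cerebrum and cerebellum. In thymus the intervals of Tap1, Tap2, Psmb8, Psmb9, Psmb10, Psmb6 and Psmb7 lie above 0 and that of Nlrc5 below, and of the 3 organs cerebellum has the widest interval for each gene.

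In cerebrum no member separated Tol from WT. Of the 10 members 0 passed an adjusted p of 0.05 in edgeR, where 0% of 15596 genes did, and 0 had an unadjusted p under 0.05, where 9.66% of genes did. DESeq2 called 0 members and 1.42% of the genes it gave an adjusted p. No member had all Tol cerebra above all WT cerebra, where 3.29% of genes did, or all below, where 3.16% did. Tap1 came nearest, at 3.06, 3.32, 3.16 and 3.27 CPM in the Tol cerebra and 2.60, 2.64, 2.52 and 3.06 CPM in the WT cerebra. WT replicate 4 lay level with the lowest Tol library (log2 fold change 0.24 ± 0.13, edgeR adjusted p = 0.594). Psmb8 was at 2.14, 1.82, 1.68 and 2.57 CPM in the Tol cerebra and 2.16 to 2.83 CPM in the WT cerebra (log2 fold change -0.20 ± 0.19, adjusted p = 0.790), with overlap. The median log2 fold change was -0.03 over the members and -0.005 over all genes tested.

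The remaining cerebrum values overlapped between the genotypes. B2m was at 78.0, 101, 74.5 and 79.5 CPM in the Tol cerebra and Tap2 at 7.38, 7.33, 6.91 and 7.79 CPM, with log2 fold changes of 0.07 ± 0.15 and -0.09 ± 0.11. H2-K1, H2-D1, Tapbp and Psmb10 had log2 fold changes of -0.03, -0.04, -0.07 and -0.01, and all of these turned positive, to 0.05, 0.02, 0.02 and 0.07, with the length and GC trend removed. Psmb9 and Nlrc5 had 13 to 26 and 16 to 27 counts per cerebrum library. Their log2 fold changes were 0.14 ± 0.24 (95% interval -0.40 to 0.69) and -0.15 ± 0.24 (-0.69 to 0.40), and differences within these intervals were not resolved. Leaving out 1 library moved them over 0.03 to 0.30 for Psmb9 and -0.26 to -0.01 for Nlrc5, and moved Psmb8 over -0.32 to -0.09. The ratio of Psmb8 to Psmb5 was 0.0411, 0.0340, 0.0331 and 0.0569 in the Tol cerebra and overlapped with WT (difference in mean log2 ratio -0.04, exact permutation test, p = 0.771).

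In cerebellum, where a Tol value rests on 2 libraries, 0 of 10 members passed an adjusted p of 0.05 in edgeR, where 0% of 16662 genes did. None had an unadjusted p under 0.05, where 3.16% of genes did, and DESeq2 called 0 members and 0.0646% of the genes it gave an adjusted p. Psmb9 was the 1 member with both Tol libraries above all WT libraries, where 5.2% of genes were so placed, and 0 members lay below, where 5.26% of genes did. Psmb9 was at 1.07 and 1.17 CPM in the Tol cerebella and 0.588, 0.959, 0.425 and 0.786 CPM in the WT cerebella (log2 fold change 0.73 ± 0.39, 95% interval -0.23 to 1.69, adjusted p = 0.957). It was 0.64 without the library labelled Tol replicate 2 and 0.81 without Tol replicate 1, where the lone Tol library is assumed to vary like the others. The ratio of Psmb9 to Psmb6 was 0.0167 and 0.0183 in the Tol cerebella, also above all WT values (p = 0.133 by exact permutation, the smallest that 2 libraries against 4 allow with this test, adjusted p = 0.6). Without the library labelled Tol replicate 2, 0 members and 0 genes passed an adjusted p of 0.05, and the difference in this log2 ratio was 0.64.

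H2-D1 and Psmb10 differed between the Tol cerebella themselves. H2-D1 was at 130.4 CPM in Tol replicate 1 and 56.7 CPM in the library labelled Tol replicate 2, against 108, 84.7, 121 and 109.6 CPM in the WT cerebella. Psmb10 was at 8.49 and 18.4 CPM in the same Tol libraries, against 9.23, 12.3, 8.42 and 9.30 CPM in the WT cerebella. The library labelled Tol replicate 2 was thus the lowest of the 6 in H2-D1 and the highest in Psmb10, and WT replicate 2 was next in both. The log2 fold change of H2-D1 was -0.16 ± 0.32, and 0.30 without the library labelled Tol replicate 2, and that of Psmb10 was 0.49 ± 0.34 and -0.21 without it. H2-D1 followed the order of the summed cerebellum markers in all 6 libraries, from 4318 CPM in Tol replicate 1 to 146 CPM in the library labelled Tol replicate 2. The 4 astrocyte markers, led by Slc1a3 in the other 5 and by Aqp4 in the library labelled Tol replicate 2, summed to 2660.1 and 1067 CPM in the Tol cerebella and 2212, 1681, 2388 and 2147 CPM in the WT cerebella. From the first to the second Tol cerebellum Slc1a3 went from 1874 to 376 CPM and Aqp4 from 590.4 to 407 CPM, while Gfap (134 and 218 CPM) and Aldh1l1 (61.8 and 65.3 CPM) did not fall with the sum. Summed microglia and macrophage markers, like Psmb10, were highest in the library labelled Tol replicate 2 and next in WT replicate 2. Summed endothelium markers had the same order, at 263 and 247 CPM, against 194 to 206 CPM in the other cerebella. The part of the cerebellum markers and of other cell types in the values of H2-D1 and Psmb10 was not tested. After centring on genotype, the correlation of H2-D1 with Psmb10 over the 6 libraries was -0.998, as a description. It was the lowest of the 45 pairs of members in cerebellum and includes the library labelled Tol replicate 2. The other 7 members had cerebellum log2 fold changes from -0.33 (Nlrc5, ± 0.45) to 0.15 (Tapbp, ± 0.13), with overlap. Without the library labelled Tol replicate 2 they were -0.05 (B2m), -0.11 (H2-K1), -0.05 (Tap1), 0.03 (Tap2), 0.09 (Tapbp), -0.08 (Psmb8) and -0.54 (Nlrc5).

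Whether the Tol difference itself differed between thymus and cerebrum was tested by the interaction term over the 16 libraries of these organs. Of the 10 members 0 passed an adjusted p of 0.05 in edgeR, where 0.107% of genes did (19 of 17774). An unadjusted p under 0.05 was found for 2 members, where 16.5% of genes had one, and DESeq2 called 0 members and 3.47% of the genes it gave an adjusted p. Subtracting the thymus log2 fold change from that of cerebrum gave -0.39 ± 0.12 for Tap2 (adjusted p = 0.1405) and -0.46 ± 0.18 for Psmb8 (adjusted p = 0.218). Without thymus Tol replicate 1 Tap2 was the 1 member called, where 6.22% of genes were (-0.44, adjusted p = 0.0418, with 0.0418 to 0.280 over the alternatives). The median was -0.10 over the members and -0.01 over all genes tested. The constitutive subunits had similar values, with -0.34 ± 0.11 for Psmb6 (adjusted p = 0.147) and -0.33 ± 0.11 for Psmb7 (adjusted p = 0.161).

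Other genes of the pathway were described by lists, of which 0 genes passed an adjusted p of 0.05 in any Tol comparison in edgeR. Of 16 tested subunits and assembly factors of the proteasome core outside the catalytic exchange, 13 had an unadjusted p under 0.05 in thymus, all higher in Tol, where 13.3% of all genes were higher and 11.1% lower. Over all 16 the log2 fold changes ran from 0.18 to 0.45, with a median of 0.26. With the length and GC trend removed, 6 of the 16 did, all higher, where 1705 of 16248 genes were higher and 1777 lower, and the median over the 16 was 0.15. The core genes are short, with a median mean transcript length of 885 bases against 1764.5 bases over all genes tested. Psmg4, an assembly factor, was at 8.84, 11.1, 10.4 and 12.2 CPM in the Tol thymi and 7.66, 6.83, 7.56 and 8.94 CPM in the WT thymi. Its lowest Tol library lay just under the highest WT library (log2 fold change 0.45 ± 0.12, edgeR adjusted p = 0.0862). In cerebrum 0 core genes were higher and 1 was lower at that unadjusted threshold, with a median of -0.04, where 750 of 15596 genes were higher and 756 lower. That gene was Psmb4, with all Tol cerebra below all WT cerebra (log2 fold change -0.21 ± 0.07, adjusted p = 0.372). In the interaction 12 core genes were lower, with a median of -0.31, where 1744 of 17774 genes were. Psmb1, a core subunit, had both Tol cerebella above the WT cerebella (0.20 ± 0.10, adjusted p = 0.957), as did the catalytic Psmb6 (0.09 ± 0.08), and Psmb5 was lower in cerebrum (-0.15 ± 0.06, adjusted p = 0.480) with overlap.

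The regulatory particle, which feeds substrates into the core, and the proteasome activators were tested too. Of 21 regulatory particle genes 8 were higher and 1 lower in Tol thymus at an unadjusted p under 0.05 (median log2 fold change 0.13), and of 5 activator genes 3 were higher (median 0.15), against the same 13.3% and 11.1% of all genes. With the length and GC trend removed, 4 regulatory particle genes were higher and 1 lower (median 0.03), and 1 activator gene was higher and 1 lower (median 0.05), where 1705 of 16248 genes were higher and 1777 lower. Psmd4, a ubiquitin receptor of the regulatory particle, was at 98.9, 121, 109 and 108 CPM in the Tol thymi and 87.6 to 97.4 CPM in the WT thymi (log2 fold change 0.24 ± 0.07, adjusted p = 0.104). Psmd13, a lid subunit, was at 57.5, 55.2, 55.4 and 56.0 CPM in the Tol cerebra and 58.5 to 62.6 CPM in the WT cerebra (-0.12 ± 0.05, adjusted p = 0.471), and Psmd5, an assembly chaperone, had 0.16 ± 0.12 in cerebellum, with overlap. Psme1, a subunit of the activator that interferon induces, was at 115, 142, 136 and 136 CPM in the Tol thymi and 114, 110.3, 114 and 114 CPM in the WT thymi. All Tol libraries lay above all WT libraries, Tol replicate 1 by less than 1 CPM (log2 fold change 0.23 ± 0.07, adjusted p = 0.113). In WT mice Psme1 was 5.95-fold higher in thymus than in cerebrum, and Psmf1, a proteasome inhibitor, 1.12-fold. Psmf1 overlapped in cerebrum (log2 fold change of Tol over WT 0.15 ± 0.09, adjusted p = 0.632) and had both Tol cerebella above the WT cerebella (0.21 ± 0.09, adjusted p = 0.957).

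Among 18 other class I and class I-like heavy chains tested in thymus, 6 were higher and 2 lower in Tol at an unadjusted p under 0.05, with a median log2 fold change of 0.13, where 13.3% of all genes were higher and 11.1% lower. With the trend removed the counts were 7 and 2, with a median of 0.07, where 1705 of 16248 genes were higher and 1777 lower. H2-T10, a class I-like chain, was at 69.3, 70.1, 50.8 and 69.3 CPM in the Tol thymi and 48.1, 40.8, 48.8 and 42.5 CPM in the WT thymi. Tol replicate 3 was the closest to the WT range and still above it (log2 fold change 0.53 ± 0.11, edgeR adjusted p = 0.0682). In cerebrum H2-T24 was at 13.5, 13.4, 15.1 and 14.3 CPM in Tol and 10.5, 12.2, 11.3 and 11.2 CPM in WT, without overlap (log2 fold change 0.32 ± 0.08, adjusted p = 0.269). In cerebellum H2-Q1 was at 2.02 and 3.47 CPM in Tol and 0.378, 0.349, 1.197 and 0.131 CPM in WT, without overlap (log2 fold change 2.42 ± 0.76, adjusted p = 0.957). Of 12 genes of peptide supply and loading, 1 was higher and 3 were lower in Tol thymus, and 1 and 5 with the trend removed, against the same shares of all genes. Lnpep, an aminopeptidase, had the lowest p in thymus (log2 fold change -0.38 ± 0.13, adjusted p = 0.122), and Lap3, another, in cerebrum (-0.22 ± 0.08, adjusted p = 0.428, with overlap). Tapbpl, which resembles tapasin, was at 8.41 and 8.99 CPM in the Tol cerebella and 6.76 to 7.20 CPM in the WT cerebella (0.36 ± 0.13, adjusted p = 0.957).

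Of 24 regulators of class I genes 0 were higher and 9 lower in Tol thymus at an unadjusted p under 0.05, with a median log2 fold change of -0.05, where 13.3% of all genes were higher and 11.1% lower. With the trend removed 1 was higher and 8 were lower, where 1705 and 1777 of 16248 genes were. Jak2, a kinase of the interferon-gamma receptor, was at 128, 112, 125 and 115 CPM in the Tol thymi and 144, 148, 139 and 152 CPM in the WT thymi. Every Tol thymus lay below every WT thymus (log2 fold change -0.28 ± 0.06, edgeR adjusted p = 0.0733). Rela, a subunit of NF-kappaB, overlapped in cerebrum (-0.21 ± 0.08, adjusted p = 0.448). Of the interferon-induced genes outside the pathway, 3 of 16 were higher in Tol thymus, and 1 with the trend removed, and 3 of 15 in Tol cerebrum, where 750 of 15596 genes were. The medians were 0.07 in thymus and 0.21 in cerebrum. Isg15 had a log2 fold change of 0.33 ± 0.11 in thymus (adjusted p = 0.118) and Ifit3 of 0.33 ± 0.11 in cerebrum (adjusted p = 0.383) and 0.47 ± 0.36 in cerebellum. Of 8 receptors for class I, most of them of T and NK cells, 1 was lower in Tol thymus, Pirb, which B cells and myeloid cells carry (log2 fold change -0.34 ± 0.11, adjusted p = 0.115), with the trend removed as well. Cd8a, a chain of the CD8 coreceptor, had -0.53 ± 0.32 in cerebrum and -0.45 ± 0.37 in cerebellum, with overlap in both. In cerebellum Irf9, a subunit of the interferon-activated factor, was at 12.9 and 10.5 CPM in Tol and 16.3, 17.5, 16.5 and 23.1 CPM in WT (log2 fold change -0.62 ± 0.19, adjusted p = 0.957).

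In WT mice the same lists were compared between thymus and cerebrum, where 43.4% of all genes were called higher in thymus. All 16 interferon-induced genes were called higher in thymus than in cerebrum (median log2 fold change 3.66), from Ifit3 at 1.94 to Zbp1 at 8.47, and so were 17 of 19 other heavy chains (median 4.37), from H2-M5 at -1.84 to H2-M2 at 7.73, both class I-like. Of the 16 core proteasome genes 14 were called higher, with a median of 0.73, from Psma3, a core subunit, at -0.06 to Psmg4 at 1.34. Of the 21 regulatory particle genes 14 were higher and 3 lower, with a median of 0.28, from the ATPase Psmc5 at -0.61 to the assembly chaperone Psmd10 at 0.90. Peptide supply and loading ran from the peptidase Thop1 at -1.51 to Erap1, which trims peptides in the endoplasmic reticulum, at 3.22, and the catalytic counterparts from Psmb5 at 0.02 to Psmb11 at 6.38. All 7 tested receptors were higher in thymus, from Pirb at 4.16 to Cd8b1 at 11.08. Among the regulators, 22 of 24 were higher, with Socs1 at 6.83 and Rfxap at -0.24 at the ends. The members ran from Psmb10 at 1.60 to Psmb8 at 6.33.

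Within groups the members were compared by correlation. After centring on each organ and genotype, the median correlation over 45 pairs of members was 0.504 across the 8 thymus libraries, with 23 pairs over 0.5, and ran from -0.944 (Psmb8 with Nlrc5) to 0.958 (H2-K1 with H2-D1). It was 0.344 across the 8 cerebrum libraries, with the highest pair B2m and H2-D1 at 0.962, and 0.697 across the 6 cerebellum libraries. Over all pairs of tested genes, computed after the values of the members had been seen, the medians for thymus, cerebrum and cerebellum were 0.007, 0.003 and -0.001. Of these pairs 16.2% in thymus, 16.7% in cerebrum and 28.0% in cerebellum were over 0.5, against 23, 16 and 29 of the 45 pairs of members. These values describe libraries that share depth and tissue sampling. Over all 22 libraries, the genes whose centred level was most like the mean of the members were Ifitm3 (r = 0.888), Tinagl1 (0.881), Irgm2 (0.866), Irgm1 (0.864) and H2-M3 (0.862). Lamp1 (0.859), Plau (0.858), Anxa5 (0.856), Rfk (0.853) and Tsku (0.849) completed the 10 with the highest r. Without the library labelled cerebellum Tol replicate 2, 7 of these 10 remained among the 10 highest.

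Promoters are shown because members on different chromosomes share an organ pattern. RefSeq promoters (GRCm38.p6, 250 bases before to 50 after the start) were matched for 8 of the 10 members, and Tap2 and Nlrc5 are named only. Both strands were searched for the interferon response core GAAANNGAA, the gamma-activated site TTCNNNGAA, the Y box CCAAT, the CRE core TGACG and the NF-kappaB forms GGGACTTTC and GGGGATTCC. Of 32851 promoters of this length, 8.56% held the interferon response core, 8.30% the gamma-activated site, 37.4% the Y box, 20.8% the CRE core, 0.353% GGGACTTTC and 0.250% GGGGATTCC. A Y box was found in 6 of the 8 members (B2m, H2-K1, H2-D1, Tap1, Tapbp and Psmb9) and a CRE core in 5 (B2m, H2-K1, H2-D1, Tap1 and Psmb9). The promoters of Tap1 (chr17:34187306-34187605) and Psmb9 (chr17:34187281-34187580) overlap. Their Y box and CRE core matches are the same bases, read on opposite strands, and are counted for each gene. The interferon response core, in the spelling searched, was found in B2m alone, the gamma-activated site in Psmb8 alone, and none of the 6 in Psmb10. Other spellings were not searched, so a promoter without a match may still hold another form of an element. Stretches of the light chain and heavy chain promoters are shown, with matches on either strand in capitals, from chr2:122147538-122147648 (plus strand), chr17:34000349-34000468 (minus strand) and chr17:35262913-35262941 (plus strand). The B2m and H2-K1 stretches lie before the annotated start of the gene, and the H2-D1 stretch lies within the annotated span of H2-D1. The heavy chains share the same NF-kappaB form and the 10 bases before it, and differ within the 10 bases after it. B2m holds the other form, on the minus strand. A match describes the letters and is neither a binding site nor a cause.
B2m: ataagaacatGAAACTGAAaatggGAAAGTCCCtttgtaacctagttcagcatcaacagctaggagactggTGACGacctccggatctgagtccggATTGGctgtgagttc
H2-K1: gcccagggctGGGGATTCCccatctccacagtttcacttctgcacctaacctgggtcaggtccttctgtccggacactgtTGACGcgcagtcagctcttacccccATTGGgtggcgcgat
H2-D1: gcccagggctGGGGATTCCccatctcctc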

How the data were processed

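The authors prepared stranded, poly(A)-selected libraries (TruSeq Stranded mRNA), sequenced single-end reads of 65 bases, and quantified them against GRCm38 transcripts plus the Tol sequence (Salmon 0.14.1). The deposited values are estimated counts per gene, as whole numbers and not normalized, in 3 tables with 22 libraries. They needed no rounding, and 0 columns were left unused. The release of the transcriptome is not given in the sources used here. Groups were taken from the submitters' labels.

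Genotypes were compared organ by organ with edgeR 4.0.16 under R 4.3.3 (TMM, filterByExpr, quasi-likelihood F test) on all genes, with Benjamini-Hochberg adjustment and a threshold of 0.05. The Tol transcript stayed in the fits and out of the counts. The interaction used 16 libraries and the organ comparisons the 12 WT libraries. DESeq2 1.42.0 was an alternative, with other normalizations, filters, moderation, a replicate block and leaving out each library. A removal of length and GC trends and leaving out the deepest thymus pair were chosen after seeing the data. Tests were tried on simulated data. Ratios were tested by two-sided exact permutation with scipy 1.17.1. Gene models are from GENCODE vM21, which held 34530 of 34585 identifiers. No 2 libraries of a group were alike within sampling noise.

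The members and lists were chosen with earlier results of these data known. The genes named are the members, Psmb5, Psmb6, Psmb7 and Psmb11, the gene of each list with the lowest p in each organ (up to 5 under an adjusted p of 0.05), the highest and lowest of each list between WT thymus and cerebrum, and the 10 genes most like the mean of the members. Marker genes, and genes that share sequence or exons with a member, are named as such. Marker lists with no value in the text are not reported here.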

Additional observations from a re-analysis of the deposited data

Results flagged for a closer look

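In 9 of 100 groups of 4 libraries, 1 library lay far from the other 3 relative to the range of its group, which chance gives in about 1 in 20 groups. Tap1 in thymus WT replicate 1 was at 156 CPM, with the others at 149 to 150.2 CPM. Cerebrum WT replicate 2 held 3 such values: Psmb8 at 2.83 CPM (others 2.16 to 2.22 CPM), Psmb9 at 1.09 CPM (others 0.868 to 0.901 CPM) and the count ratio of Psmb9 to Psmb6 at 0.0199 (others 0.0149 to 0.0152). The total count was 34776973 in thymus Tol replicate 1 (others 18519829 to 20527399), 29145285 in thymus WT replicate 4 (others 16319117 to 17940261) and 14543698 in cerebrum Tol replicate 4 (others 22147602 to 23311643). Relative to the raw library total, without the scaling of the other values, the Tol transcript was at 0.102 CPM in cerebrum WT replicate 3 (others 0.0476 to 0.0554 CPM) and at 0 CPM in cerebellum WT replicate 4 (others 0.0370 to 0.0424 CPM), all under the floor of 3 counts.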

How the results depend on the processing

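Members called in thymus numbered 0, and 2 by DESeq2, 5 without the deepest Tol and WT library, 1 at an adjusted p under 0.10, and 0 to 5 when single libraries were left out (5 without thymus Tol replicate 1). The interaction gave 0 to 1 on leaving out a library (1 without thymus Tol replicate 1), and cerebrum against cerebellum 2 to 4 (4 without cerebellum WT replicate 2). The other 67 counts from alternatives that kept all libraries or left out the pair, and 71 of those that left out 1, stayed within 1.5 times the reported count. Of the log2 fold changes, 612 kept direction and side of the threshold, 19 changed direction and 9 newly passed the threshold; with 1 library left out, 689 kept both, 42 changed direction and 9 newly passed. All 10 members kept their direction and call between thymus and either brain region under every alternative run. The causes of the changes were not tested.

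With the length and GC trend removed, log2 fold changes turned in thymus to -0.092 (B2m), -0.053 (H2-K1) and -0.088 (H2-D1), in cerebrum to 0.053 (H2-K1), 0.024 (H2-D1), 0.024 (Tapbp) and 0.075 (Psmb10), and in the interaction to 0.10 (B2m), 0.077 (H2-K1), 0.090 (H2-D1), 0.032 (Psmb9), 0.012 (Psmb10) and -0.027 (Nlrc5). The interaction of B2m was 0.0035 with library totals and 0.0052 with at least 10 counts in every library. For same-numbered Tol and WT libraries within an organ, r of deviations was -0.0583 to 0.0425 in thymus, -0.190 to 0.131 in cerebrum, and -0.149 and 0.522 in cerebellum. The own number gave the highest r for cerebrum replicates 1 (0.112) and 2 (0.131) and cerebellum replicate 2 (0.522), and for no thymus library. Across organs of a genotype, 16 same-numbered pairs were run, none with a Tol cerebellum, and r was positive in each, from 0.00146 to 0.0726. The own number, 1 of 4 candidates each time, gave the highest r in 12. The labels do not say whether numbers stand for animals, and the main fits, also those across organs, took no account of the numbers. Under a replicate block, cerebellum values turned to -0.070 (B2m), -0.083 (H2-K1) and -0.086 (Tap1), and the interaction of B2m to 0.0032. The block called 3 members between cerebrum and cerebellum, H2-K1 being added (-0.27, adjusted p = 0.0497, with 0.0203 to 0.310 over the alternatives), and changed no other count of members.

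Leaving out 1 library gave thymus ranges of 0.047 to 0.12 (B2m), 0.028 to 0.12 (H2-K1), 0.019 to 0.11 (H2-D1), 0.069 to 0.16 (Tapbp), 0.13 to 0.29 (Psmb10) and -0.32 to -0.15 (Nlrc5), and cerebrum ranges of -0.14 to 0.080 (H2-K1), -0.15 to 0.097 (H2-D1), -0.032 to 0.20 (B2m), -0.13 to 0.0064 (Tapbp), -0.14 to 0.10 (Psmb10), -0.14 to -0.021 (Tap2), -0.32 to -0.093 (Psmb8), 0.030 to 0.30 (Psmb9) and -0.26 to -0.013 (Nlrc5). In cerebellum the ranges were -0.048 to 0.24 (B2m), -0.11 to 0.16 (H2-K1), -0.85 to 0.30 (H2-D1), -0.046 to 0.32 (Tap1), -0.14 to 0.11 (Tap2), -0.083 to 0.30 (Psmb8), -0.21 to 0.95 (Psmb10), 0.073 to 0.20 (Tapbp) and -0.54 to -0.010 (Nlrc5). The interaction ranged over -0.12 to 0.12 (B2m), -0.19 to 0.012 (H2-K1), -0.20 to 0.043 (H2-D1), -0.23 to 0.074 (Psmb9) and -0.058 to 0.21 (Nlrc5), and cerebrum against cerebellum over -0.28 to 0.065 (Tap1) and -0.42 to 0.056 (Nlrc5). Differences in log2 ratio ranged over -0.21 to 0.075 (Psmb8 to Psmb5) and -0.060 to 0.16 (Psmb10 to Psmb7) in cerebrum, and over -0.0098 to 0.25 and -0.33 to 0.95 in cerebellum. In thymus they ranged over -0.092 to -0.0034 (Psmb9 to Psmb6) and -0.086 to -0.011 (Psmb10 to Psmb7).

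Among all genes, calls in thymus numbered 16, and 10 with library totals, 1244 by DESeq2, 130 without a filter, 85 with at least 10 counts, 38 with robust moderation, 5 with the block, 29 with all 22 libraries, 58 with the trend removed, 1808 without the deepest pair, 1066 at an adjusted p under 0.10, and 0 to 2978 without 1 library. In cerebrum 0 became 184 by DESeq2, 25 with all 22 libraries, 1 with library totals, 1 at 0.10 and 0 to 7 without 1 library, and in cerebellum 9 by DESeq2 and 0 to 2. The interaction called 19, and 470 by DESeq2, 48 with at least 10 counts, 8 with the block, 666 without the deepest pair and 2 to 1116 without 1 library. Library totals moved the median of all genes from 0.06 to 0.47 for thymus over cerebrum, from -0.01 to 0.26 for thymus over cerebellum and from -0.03 to -0.18 for cerebrum over cerebellum, and DESeq2 the thymus medians to 0.22 and 0.15. With library totals H2-K1 was called between the brain regions (-0.42, adjusted p = 0.0203). The share of calls that were higher moved with library totals from 56.3% to 70% in thymus, 36.8% to 48% in the interaction and 48.2% to 33.9% for cerebrum over cerebellum.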
